A study of Mus musculus with 6 samples.

Results

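A set of 9 nuclear genes that encode chaperones and quality-control proteases of the mitochondrion were followed in freshly sorted mouse muscle stem cells with and without Cre-driven loss of OPA1, the GTPase that fuses the inner mitochondrial membrane. They are the chaperonin pair Hspd1 and Hspe1, the chaperone Trap1, the proteases Lonp1, Clpp, Afg3l2, Spg7 and Htra2, and Clpx, the unfolding partner of Clpp. They were chosen by name and role from the 49652 genes in the count tables, and all 9 were found and passed the filter on low counts. No expression value enters that choice, but it was made with earlier results of these data known, so the KO against WT values below are descriptions. None of the 9 genes was called different between the genotypes. Clpp and Lonp1 were lower and Clpx was higher in each KO library than in each WT library, by small amounts, and 6.55% of all genes tested were likewise without overlap between the groups. Hspd1 and Hspe1 varied more among libraries of 1 genotype than between genotypes.

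The cells came from uninjured hindlimb muscle of mice aged 8 to 10 weeks, sorted for alpha-7 integrin and VCAM and against SCA1, CD45 and CD31. Both groups carry the design labelled OPA1-Pax7-CreERT2, in which tamoxifen activates a Cre driven from Pax7, the gene that defines these stem cells. WT animals (n = 3 libraries) were Cre negative and KO animals (n = 3 libraries) Cre positive. All received tamoxifen by gavage for 5 days and were sampled 3 days later, so presence of Cre and loss of Opa1 go together in this design and cannot be told apart. The number of animals behind a library is not stated, and p-values therefore measure the spread between these libraries, which may be partly technical.

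Mitochondria import most of their proteins unfolded. Inside the matrix, chaperones fold them, and ATP-dependent proteases remove those that stay misfolded or unassembled. When unfolded proteins build up, cells can raise transcripts of these chaperones and proteases, a program called the mitochondrial unfolded protein response. OPA1 itself is cut by the inner membrane proteases OMA1 and YME1L, which ties it to this quality-control system.

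Levels are given as CPM, read counts scaled to a common library size, and as CPM per kilobase of exon where genes are compared with each other, with the 3 libraries of a group always in the order of replicates 1 to 3. Between 41410136 and 56606886 reads per library fell in genes, and each member had 994 to 29246 counts in every library, so the spread between libraries and not counting error limits the precision. Opa1, the targeted gene, gave 68.2, 31.4 and 68.8 CPM in WT replicates 1 to 3, against 17.5, 34.4 and 27.1 CPM for KO replicates 1 to 3. The KO mean was 46.9% of the WT mean (38.5% without the library labelled WT replicate 2), and the adjusted p was 0.99998 in edgeR's quasi-likelihood test. Its level in the library labelled WT replicate 2 lay inside the KO range. Fold changes and partner ratios of the members are therefore given with and without that library, while levels, likeness of pattern and lists of other genes are given with it. In these bulk libraries, fewer cells with a transcript and less of it per cell cannot be told apart. The stem cell markers Pax7 and Vcam1 were at 252 to 453 CPM and 1032 to 1407 CPM. Of 8 listed stem cell markers, 3 had a positive and 5 a negative log2 fold change, with 0 called. Calcr was lower in every KO library, at 273, 229 and 349 CPM in WT against 178, 165 and 228 CPM in KO. It was the 1 marker of the list without overlap, against 6.55% of all genes tested. Of the leukocyte markers, Ptprc, which encodes CD45 and was sorted against, was at 0 in 3 of the 6 libraries and reached 0.651 CPM at most, while Cd68 was at 3.43 to 9.14 and Lyz2 at 2.01 to 9.12 CPM. Pecam1, of endothelium, lay between 4.36 and 22.5 CPM.

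Because Hspd1 and Hspe1 are head-to-head neighbours, the sequence between them is shown first. Both lie on chromosome 1 of GRCm38, Hspd1 from 55077835 to 55088243 on the minus strand and Hspe1 from 55088132 to 55091307 on the plus strand. The main transcripts leave 107 bases between their starts, at 55088024 for Hspd1-201 and 55088132 for Hspe1-201. Other annotated Hspd1 transcripts begin at 55088243, inside Hspe1, and the first exon of 1 of them covers the bases printed here. A heat shock element, the binding site of heat shock factor, is built of inverted repeats of a short unit, and was searched on both strands as TTCNNGAANNTTC and GAANNTTCNNGAA. Between the main starts, both forms matched in overlap, giving 4 units in 18 bases. The 30 bases around it, from RefSeq on GRCm38.p6, plus strand, chr1:55088053-55088082, with the joined match in capitals, are:
Hspd1-Hspe1: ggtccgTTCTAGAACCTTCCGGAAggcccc

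The match begins 89 bases before the RefSeq start of Hspe1, and the same bases lie in 1 of the 2 RefSeq windows of Hspd1. Of 32851 RefSeq promoter windows (250 bases before to 50 after a start), 0.603% held such an element. Of the 7 members with a window, only Hspd1 and Hspe1 had one. An ATF4-type element, searched on both strands as TGATGNAA, was in 3.97% of all windows and in 0 windows of these 7 genes. Afg3l2 and Htra2 were not searched.

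Clpp and Clpx, whose levels parted between the genotypes, are printed for comparison as the 150 bases before their RefSeq starts on the plus strand, with no capitals because neither holds either motif. Clpp lies at chr17:56990114-56990263 and Clpx at chr9:65294110-65294259.
Clpp: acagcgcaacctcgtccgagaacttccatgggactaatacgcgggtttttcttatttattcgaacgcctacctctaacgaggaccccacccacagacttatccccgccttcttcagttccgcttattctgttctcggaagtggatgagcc
Clpx: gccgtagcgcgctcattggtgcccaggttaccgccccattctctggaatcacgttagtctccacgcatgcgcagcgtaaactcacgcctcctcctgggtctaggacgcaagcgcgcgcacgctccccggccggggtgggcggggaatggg
The Clpx stretch has 66.7% G and C and the Clpp stretch 51.3%. A match in these letters is a description of the sequence and not a measured binding site.

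Per kilobase of exon, the members spanned a wide range of levels, with the chaperones at the top. Hspd1 was the most abundant, with a mean of 164 CPM per kilobase over the 6 libraries. Hspe1 followed at 101, Trap1 at 76.9 and Clpp at 69.4 CPM per kilobase. Clpx stood at 38.0, Htra2 at 17.9, Lonp1 at 14.7, Afg3l2 at 9.45 and Spg7 at 5.07 CPM per kilobase. Among neighbours in this order, the ranges over libraries overlapped for Hspe1 and Trap1, for Trap1 and Clpp, and for Htra2 and Lonp1. The other neighbours did not overlap. Hspd1 lay above 98.3% of the 18832 genes tested by this measure and Spg7 above 60.6%. Exon lengths count every annotated transcript, 9.87 kilobases for Afg3l2 and 1.22 for Clpp, which lowers the value of genes with long alternative exons.

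**Figure D1:**
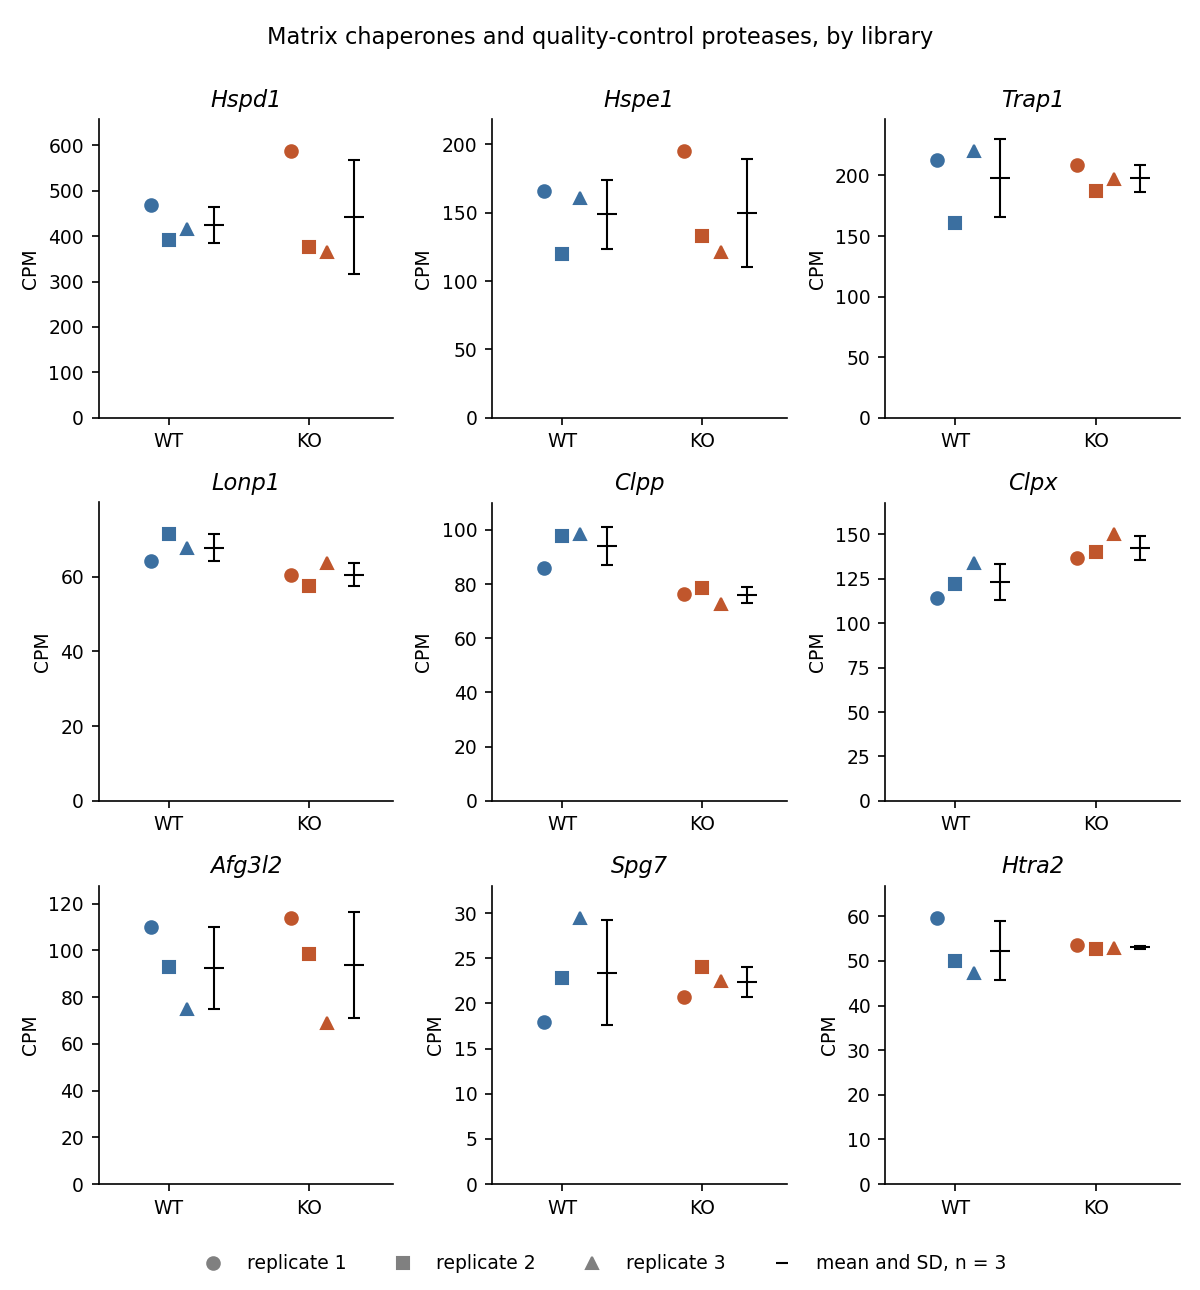
Normalised read counts (CPM, y axis from 0) of the 9 genes in the 3 WT (blue) and 3 KO (orange) libraries, 1 panel per gene, with the marker shape giving the replicate number and the black bar the mean and SD of each group. For Lonp1, Clpp and Clpx the groups do not overlap, while KO replicate 1 is the highest library for Hspd1, Hspe1 and Afg3l2.

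The chaperonin genes came first among the folding machinery. Hspd1 encodes HSP60, whose rings enclose and fold matrix proteins. Hspd1 measured 468, 391 and 415 CPM over WT replicates 1 to 3, and 587, 375 and 365 CPM over KO replicates 1 to 3. The top library was KO replicate 1 and the other 2 KO libraries were the lowest, so the groups overlapped. The means were 425 ± 39.3 CPM for WT and 442 ± 125 CPM for KO (SD, n = 3 each), a log2 fold change of 0.06 (SE 0.21, 95% interval -0.44 to 0.56). That interval spans 0.74 to 1.47 times the WT level. Without KO replicate 1 the log2 fold change of Hspd1 was -0.20. It was 0.0023 if the library labelled WT replicate 2 was left out.

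Hspe1 encodes HSP10, the lid of the HSP60 chamber. Hspe1 levels were 166, 120 and 161 CPM (WT) against 195, 133 and 121 CPM (KO). Again KO replicate 1 was highest, and the library labelled WT replicate 2 was lowest. The group means were 149 ± 25.1 CPM for WT and 150 ± 40.0 CPM for KO (SD, n = 3 each), with a log2 fold change of 0.01 (SE 0.22). This moved to -0.23 without KO replicate 1 and to -0.13 without the library labelled WT replicate 2. Neither Hspd1 nor Hspe1 passed the threshold in any alternative run, each at an adjusted p of 0.99998 in edgeR's quasi-likelihood test.

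The pair varied together. Per kilobase, Hspe1 stood at 0.634, 0.55 and 0.694 times the level of Hspd1 in WT and at 0.596, 0.635 and 0.592 times in KO. The ratio thus kept within a narrow span, 0.626 ± 0.0723 in WT and 0.608 ± 0.0238 in KO (SD, n = 3 each), and the groups overlapped. The WT mean was 0.664 without the library labelled WT replicate 2. Likeness of pattern was measured as the root-mean-square difference of log2 CPM centred on its mean over the 6 libraries. For the pair it was 0.104, against a median of 0.360 between Hspd1 and 12957 other genes, and Hspe1 was 196th of these in likeness to Hspd1. The nearest 3 were Mapre1 (0.0224), Bzw1 (0.025) and Rars (0.0322). Afg3l2 was the next member in likeness to Hspd1, at 0.2.

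Counting limits apply to this pair. Their annotated exons share 112 bases on opposite strands, 4.24% of Hspd1 and 7.6% of Hspe1, and the strand setting of the counting is not given. The annotation also names 5 processed pseudogenes of Hspd1 and 6 of Hspe1, whose rows held at most 195 and 88 counts in a library. Reads aligned to more than 1 place are tallied apart from the genes in these tables, so both levels are uncertain.

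Trap1, the HSP90-type chaperone of the matrix (chromosome 16, 4039971 to 4077827, minus strand), measured 213, 161 and 220 CPM (WT) against 209, 187 and 197 CPM (KO). The library labelled WT replicate 2 was the lowest, and the KO libraries lay between it and the other 2 WT libraries. The means were 198 ± 32.2 CPM for WT and 198 ± 11.3 CPM for KO (SD, n = 3 each), and the 95% interval of the log2 fold change ran from -0.37 to 0.36. It was -0.13 without the library labelled WT replicate 2, and every KO library was then below both remaining WT libraries.

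Among the soluble proteases, Clpp and Clpx separated the genotypes in opposite directions. Clpp encodes the proteolytic chamber of the matrix protease ClpXP, on chromosome 17 (56990305 to 56996188, plus strand). Its levels were 85.8, 97.9 and 98.3 CPM (WT) against 76.5, 78.5 and 72.6 CPM (KO). All 3 KO libraries were below all 3 WT libraries. The means were 94.0 ± 7.07 CPM for WT and 75.9 ± 3.02 CPM for KO (SD, n = 3 each), so KO stood at 80.7% of WT. Its log2 fold change came to -0.31 (SE 0.12, 95% interval -0.60 to -0.02), with an unadjusted p of 0.0416 and an adjusted p of 0.99998 in edgeR's quasi-likelihood test. Over all 18832 genes, 2.09% had an unadjusted p under 0.05 and 0% passed after adjustment, so Clpp did not pass. With 1 library left out its log2 fold change ranged from -0.37 to -0.28, and it was -0.28 without the library labelled WT replicate 2. Of these runs, only that without WT replicate 1 had an unadjusted p under 0.05 (0.0308 in edgeR's quasi-likelihood test).

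Clpx encodes the ring-shaped ATPase that unfolds substrates and feeds them into the ClpP chamber, on chromosome 9 (65294260 to 65330658, plus strand). It measured 114, 122 and 134 CPM (WT) against 137, 140 and 150 CPM (KO). Here the lowest KO library was just above the highest WT library. The means were 123 ± 9.85 CPM for WT and 142 ± 6.95 CPM for KO (SD, n = 3 each), or 115% of WT. Its log2 fold change came to 0.21 (SE 0.12, 95% interval -0.08 to 0.49), and Clpx did not pass edgeR's test at an adjusted p of 0.99998. It was 0.20 without the library labelled WT replicate 2 and 0.15 to 0.27 with any 1 library left out.

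The ratio of the 2 partners therefore also did not overlap between the groups, which follows from the separation of each gene. Per kilobase of exon, Clpx stood at 0.466, 0.437 and 0.477 times the level of Clpp in WT and at 0.627, 0.624 and 0.724 times in KO. The WT libraries lay close together and well below the KO libraries, at 0.460 ± 0.0208 against 0.658 ± 0.0571 (SD, n = 3 each). The KO mean was 143% of the WT mean, and 140% of it without the library labelled WT replicate 2. This ratio combines 2 values whose direction was already known, so it was not tested.

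**Figure D2:**
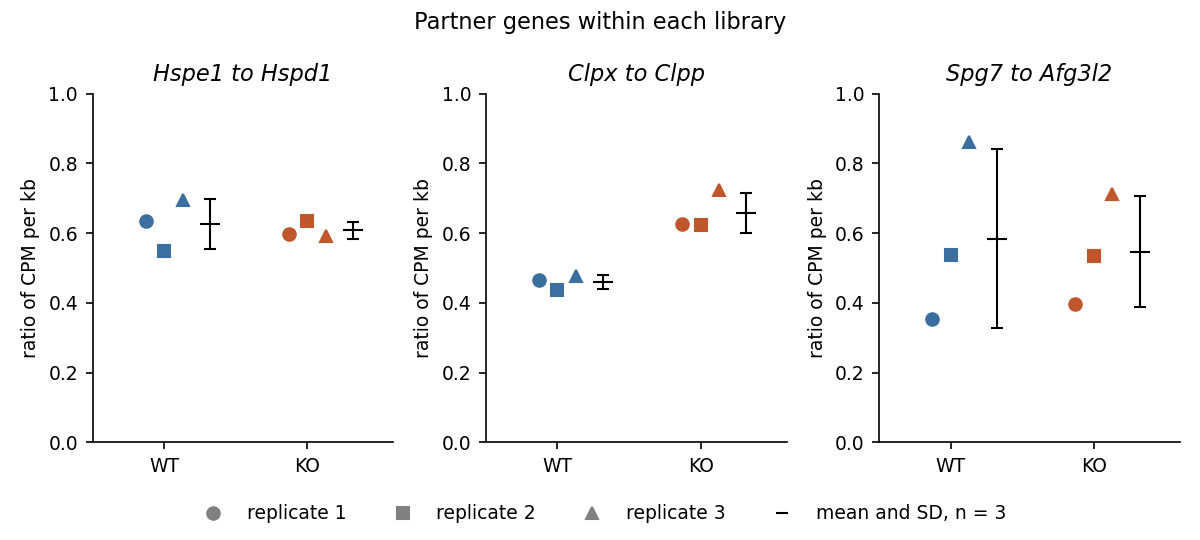
Ratio of CPM per kilobase between partner genes (y axis from 0 to 1) in each WT (blue) and KO (orange) library, with marker shape giving the replicate number and the black bar the mean and SD of 3 libraries. Clpx to Clpp is 0.437 to 0.477 in WT and 0.624 to 0.724 in KO, while the Hspe1 to Hspd1 and Spg7 to Afg3l2 ratios overlap between the groups.

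Lonp1, the LON protease that degrades oxidised and damaged matrix proteins and binds mitochondrial DNA (chromosome 17, 56614297 to 56626887, minus strand), measured 64.3, 71.3 and 67.8 CPM (WT) against 60.4, 57.5 and 63.6 CPM (KO). The KO libraries were all lower. Means were 67.8 ± 3.48 CPM for WT and 60.5 ± 3.08 CPM for KO (SD, n = 3 each), or 89.2% of WT. The log2 fold change of -0.16 (SE 0.13, 95% interval -0.46 to 0.14) did not pass, and was -0.13 without the library labelled WT replicate 2. The root-mean-square difference between the patterns of Clpp and Lonp1 over the 6 libraries was 0.110. Clpp was 344th of 12957 genes in likeness to Lonp1, and Lonp1 84th in likeness to Clpp. Both were lower in every KO library, so some likeness was given. Lonp1 also varied little (SD of log2 CPM 0.11), and this measure places steady genes near it. The genes nearest to Lonp1 were Gas5 (0.0367), Timm29 (0.0392) and 1110059G10Rik (0.0407), and those nearest to Clpp were Rftn1 (0.046), Ccdc59 (0.0541) and Naxd (0.0564).

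Lonp1, Clpp and Clpx were the only 3 of the 9 members whose groups did not overlap. Over all genes tested, 6.55% did not overlap. Without the library labelled WT replicate 2, 4 members did not overlap, Trap1 being added, against 15.6% of all genes. Without KO replicate 1 there were also 4, with Hspd1 added, against 20.6% of genes, and without WT replicate 1 again 4, with Htra2 added, against 17.9%.

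The inner membrane m-AAA protease is a ring of AFG3L2 subunits, alone or mixed with paraplegin, the product of Spg7. Afg3l2 (chromosome 18, 67404764 to 67449172, minus strand) measured 110, 92.8 and 74.9 CPM (WT) against 114, 98.4 and 69.1 CPM (KO). Replicate 1 was the highest and replicate 3 the lowest library in both groups, which overlapped throughout. The means were 92.7 ± 17.7 CPM for WT and 93.9 ± 22.9 CPM for KO (SD, n = 3 each), with a log2 fold change of 0.02 (SE 0.23). It was -0.15 without KO replicate 1, -0.12 without WT replicate 3, and 0.018 with the library labelled WT replicate 2 left out.

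Spg7 (chromosome 8, 123062942 to 123097760, plus strand) measured 17.9, 22.8 and 29.5 CPM (WT) against 20.7, 24.0 and 22.5 CPM (KO). WT replicates 1 and 3 were the lowest and the highest library, and the KO libraries lay between them. Its log2 fold change came to -0.06 (SE 0.23, 95% interval -0.60 to 0.47), and 0.14 without WT replicate 3. Leaving out the library labelled WT replicate 2 gave -0.08. Per kilobase, Spg7 stood at 0.354, 0.538 and 0.86 times the level of Afg3l2 in WT and at 0.396, 0.533 and 0.712 times in KO. This ratio differed more within each genotype than between the group means of 0.584 and 0.547, the first being 0.607 without the library labelled WT replicate 2.

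Htra2, a serine protease of the intermembrane space that can promote apoptosis once released (chromosome 6, 83051266 to 83055273, minus strand), measured 59.7, 49.9 and 47.2 CPM (WT) against 53.5, 52.7 and 52.9 CPM (KO). The KO libraries were nearly identical and lay within the WT range, though above both other WT libraries when WT replicate 1 is left out. Its log2 fold change was 0.02 (SE 0.15, 95% interval -0.33 to 0.37), and -0.011 without the library labelled WT replicate 2. Exons of Aup1 and Loxl3 on the other strand share 753 and 535 bases with it, 25.56% and 18.16% of its exon length, so its counts are uncertain.

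Across the 9 genes, 5 log2 fold changes were positive and 4 negative, with a median of 0.01, the same as the median of 0.01 over all 18832 genes tested. None was called by edgeR, 1 (Clpp) had an unadjusted p under 0.05, and none was called by DESeq2, which called 0.0785% of the 30583 genes it gave an adjusted p. For 6 of the 9 (all but Lonp1, Clpp and Clpx) the sign changed in some alternative. Leaving out a library could hardly change the sign of Lonp1, Clpp and Clpx, whose groups did not overlap. The intervals put every member between 0.66 and 1.47 times its WT level.

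**Figure D3:**
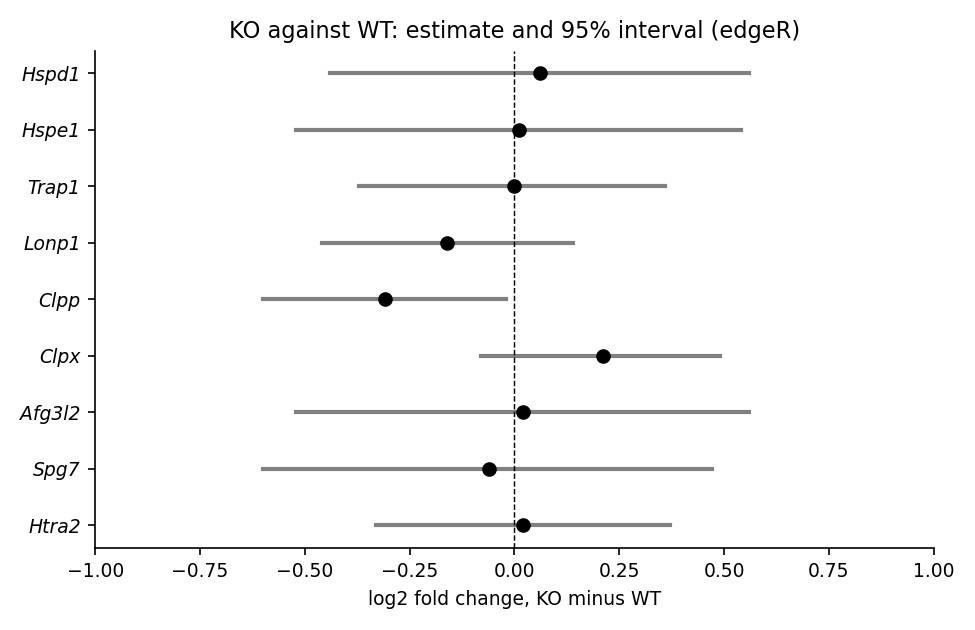
Log2 fold change of each of the 9 genes, KO minus WT (x axis), as the edgeR estimate (point) with its 95% interval (line), n = 3 libraries per group. Estimates run from -0.31 for Clpp to 0.21 for Clpx, and the other 7 lie between -0.16 and 0.06.

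Hspd1, Hspe1 and Trap1 followed a division of the libraries that crosses genotype. A list of 20 cell cycle genes had a mean log2 CPM of 4.97, 1.56 and 4.81 in WT and 5.91, 2.74 and 2.24 in KO. From the lowest library to the highest, Hspe1 gave the same order of all 6 libraries as this list. Some of its steps were near ties, at 120 and 121 CPM or 161 and 166 CPM. For Hspd1 and Trap1 the same 3 libraries (KO replicate 1 and WT replicates 1 and 3) were the highest. These members were picked from the 9 for this match, and the share of all genes with the same division was not counted. The summed level of the 9 members was 1299, 1129 and 1247 CPM (WT) against 1454, 1145 and 1114 CPM (KO), highest in those 3 libraries. Hspd1, Hspe1 and Trap1 make up most of that sum, so it says little about the other members. A list of 20 immediate early genes ran the other way, with a mean log2 CPM of 6.04, 7.44 and 5.28 in WT and 5.84, 7.42 and 7.52 in KO. Clpp did not follow this division, being at 76.5 CPM in KO replicate 1, where cell cycle genes were highest, and at 97.9 CPM in the library labelled WT replicate 2, where they were lowest. The part of cell cycle state in the levels of Hspd1, Hspe1 and Trap1 was not tested.

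**Figure D4:**
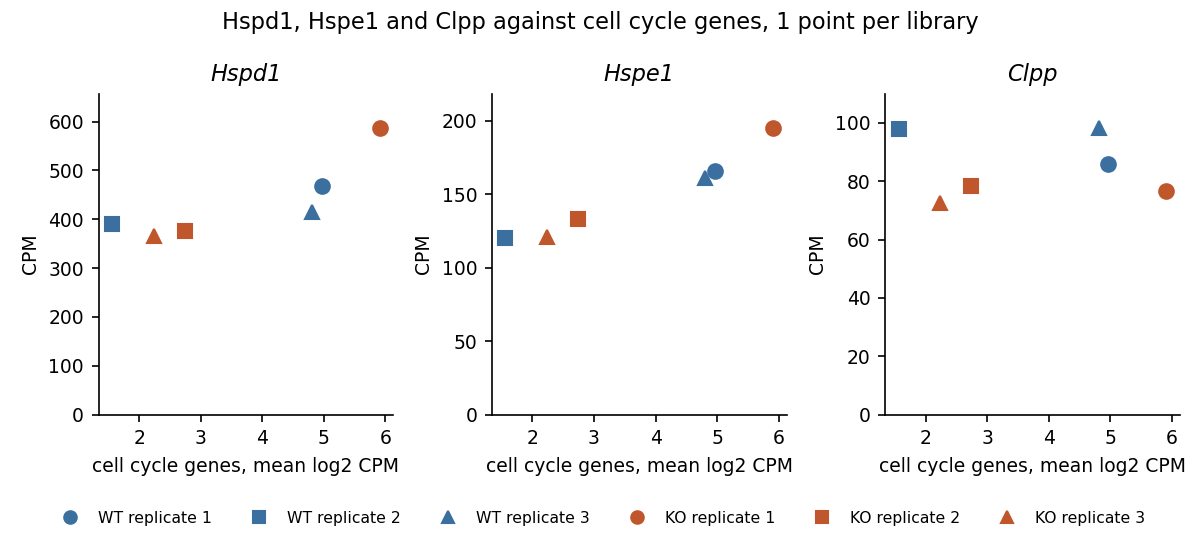
CPM of Hspd1, Hspe1 and Clpp (y axes from 0) against the mean log2 CPM of 20 cell cycle genes (x axis), 1 point per library, WT in blue and KO in orange, with marker shape giving the replicate number. Hspe1 is at 120 to 133 CPM in the 3 libraries with low cell cycle genes and at 161 to 195 CPM in the other 3, while Clpp separates by colour.

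Summed markers of 8 other cell types overlapped between the groups in all 8 lists. Sums were largest for fibro-adipogenic genes, at 840 to 1317 CPM in WT and 681 to 881 CPM in KO, a narrow overlap. Of these, Dpt alone gave 600 to 1196 CPM. Smooth muscle and pericyte genes summed to 533 to 1076 CPM in WT and 430 to 801 CPM in KO, with Acta2 alone at 260 to 981 CPM. Endothelial genes summed to 106 to 158 CPM in WT and 95 to 152 CPM in KO. Tek alone gave 77.8 to 109 CPM of that. The mean log2 CPM of the endothelial list ran from 0.39 (WT replicate 3) to 3.51 (WT replicate 2). Leukocyte genes summed to 6.26 to 15.7 CPM in WT and 6.04 to 16.7 CPM in KO, and mature fibre genes to 147 to 541 and 162 to 404 CPM.

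Other genes of the same quality-control system gave no call either. The mitochondrial HSP70 system and further chaperones of the organelle comprised 10 genes, of which 3 had positive and 7 negative log2 fold changes, with a median of -0.03 and 0 called. Hscb, a co-chaperone of iron-sulfur cluster assembly, had -0.33 (SE 0.21), and Bcs1l, which assembles complex III, 0.26 (SE 0.29). Hspa9, the mitochondrial HSP70 that pulls proteins into the matrix, measured 441, 425 and 374 CPM (WT) against 450, 369 and 412 CPM (KO). It was named for its role after its values were seen, as were Oma1, Yme1l1 and Atf5.

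Among 13 other proteases and processing peptidases, 4 were positive and 9 negative, with a median of -0.04 and 0 called. Xpnpep3, a mitochondrial aminopeptidase, measured 31.8, 27.6 and 32.7 CPM (WT) against 40.0, 42.1 and 38.2 CPM (KO). It was higher in every KO library (log2 fold change 0.38, SE 0.15, unadjusted p 0.0386) and did not pass edgeR's adjusted threshold. Pmpcb, a subunit of the peptidase that removes import signals, had -0.15 (SE 0.16). The OPA1-cutting proteases overlapped between the groups. Oma1 measured 28.8, 18.7 and 26.6 CPM (WT) against 19.3, 31.3 and 21.4 CPM (KO), and Yme1l1 at 214, 281 and 278 CPM (WT) against 239, 254 and 279 CPM (KO).

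The 4 scaffolds and partners of the membrane proteases all had negative log2 fold changes (median -0.05, 0 called). Maip1, a partner of the m-AAA protease, measured 27.1, 29.9 and 30.5 CPM (WT) against 26.9, 20.5 and 24.1 CPM (KO), lower in every KO library (log2 fold change -0.29, SE 0.18), while Stoml2, a membrane scaffold, had -0.07. Of 7 regulators linked to the mitochondrial unfolded protein response, 5 were positive and 2 negative, with a median of 0.13 and 0 called. Atf4, the effector of the integrated stress response, had 0.18 (SE 0.17) and Hsf1, the heat shock factor, 0.13 (SE 0.13). Atf5, a transcription factor tied to this response in mammals, measured 32.3, 19.7 and 21 CPM (WT) against 22.9, 25.9 and 19.6 CPM (KO).

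Chaperones of other compartments are set beside the mitochondrial genes. In the cytosol, 7 of 19 chaperone genes were positive and 12 negative, with a median of -0.04. Log2 fold changes were -0.04 (SE 0.16) for Hspa8, the constitutive HSP70, and 0.19 (SE 0.29) for Hspa1a, an inducible one. In the endoplasmic reticulum, 1 of 14 was positive and 13 negative, with a median of -0.18. For Hspa5, the HSP70 of that compartment known as BiP, the value was -0.19 (SE 0.20) and Canx, a lectin chaperone, -0.04 (SE 0.17). Neither list had a member called. By mean log2 CPM, both lists and the 4 scaffolds were highest in the same 3 libraries as the cell cycle genes. For the cytosolic list this depends on the measure. Its summed level was 12415 CPM in KO replicate 3, above 12292 in WT replicate 1 and 12105 in WT replicate 3. The endoplasmic reticulum list had a mean log2 CPM of 7.68, 6.81 and 7.57 (WT) against 7.61, 7.10 and 6.96 (KO). For the cytosolic list it was 8.33, 8.02 and 8.25 in WT against 8.50, 8.10 and 8.23 in KO. Between the highest and the lowest library, the median difference in log2 CPM was 0.45 for the 9 members, 0.62 for the cytosolic list and 0.97 for the endoplasmic reticulum list, against 1.09 over all genes tested. The members are abundant genes, and these spreads were not adjusted for level. Of the mRNAs encoded in mitochondrial DNA, whose products these proteases also handle, 12 were tested, 5 with a positive and 7 with a negative log2 fold change (median -0.10, 0 called). Among these, the KO mean was higher only for mt-Nd3, mt-Co2, mt-Co3, mt-Atp6 and mt-Atp8, whose rows held at most 14.4 CPM. Rows with high counts, such as mt-Co1 (2698 to 5867 CPM) and mt-Cytb (6720 to 15235 CPM), had lower KO means, so the split is not even across levels.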

How the data were processed

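RNA from freshly sorted muscle stem cells was sequenced in 6 libraries, 3 per group. The authors deposited raw read counts per gene, 1 table per library, unnormalized and with 49652 gene rows. HTSeq 0.6.1p2, STAR 2.6.0c, DESeq2, edgeR, cutadapt 2.5 and Trim Galore 0.5.0 are named with GRCm38 per the submitters' processing notes, without their roles. Strand setting and annotation release were not given in the sources used here. Summary rows were left out. Reads without a feature made up 11.15% to 17.02% and reads aligned more than once 14.82% to 24.57% of all reads. Symbols, positions and exon lengths come from GENCODE M21 (GRCm38), which matched 49399 rows by ID.

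KO was compared with WT over all genes with R 4.3.3 and edgeR 4.0.16 (TMM scaling, filterByExpr, which kept 18832 genes, robust quasi-likelihood test, no covariate, prior count 0.125, Benjamini-Hochberg adjustment, called at an adjusted p under 0.05). Each standard error was the size of the log2 fold change over the square root of F. Log2 CPM used a prior count of 2. Alternatives were other scalings, no filter, DESeq2 1.42.0, limma 3.58.1 voom, non-robust fitting, a replicate block, protein-coding nuclear genes, a prior count of 2 and leaving out each library. Python 3.11.15 was used for summaries.

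The members and lists were chosen with earlier results of these data known. Named are Opa1, the 9 members, the 2 genes of each pathway list with the smallest p, the 2 genes with the highest mean CPM, not scaled by length, of each list from other compartments, and, for Hspd1, Lonp1 and Clpp, the 3 genes of most similar pattern whose mean log2 CPM was 1 or more. Marker genes of the stem cells, of the sort and of other cells are named as a check. Promoter windows are RefSeq's, on GRCm38.p6. Windows on chromosome 18, where Afg3l2 lies, were left out, and 7 of the 9 members had a window among those used.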

Additional observations from a re-analysis of the deposited data

How the results depend on the processing

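EdgeR called 0 genes (393 at an unadjusted p under 0.05) with all 6 libraries, in each edgeR alternative and with any library left out, and limma voom also called 0. DESeq2 called 24, none of them a member, for which the cause was not tested. The count at an unadjusted p under 0.05 was 864 without the filter, 855 by DESeq2, 245 for protein-coding nuclear genes, 468 by limma voom, and 324 to 818 with a library left out (693, 614 and 818 without WT replicate 1, WT replicate 2 and KO replicate 1). The median log2 fold change of the 9 members lay between -0.15 (without KO replicate 1) and 0.092 (without WT replicate 1) with a library left out. With any library left out, 3 to 4 members did not overlap between groups. Lonp1, Clpp and Clpx had to be among them, because groups without overlap stay so when a library is removed. The share over all genes went from 6.55% with all libraries to between 11.8% and 20.6%. That overlap count was added after the data were seen. So were the WT means of Opa1 and of the ratios without WT replicate 2.

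No member passed the adjusted threshold in any of 15 alternatives. Lonp1, Clpp and Clpx kept their direction in all 15. With a library left out they could hardly do otherwise, because their groups did not overlap. A prior count of 2 gave the same values as the main run. Clpp had an unadjusted p under 0.05 in 9 of the 15 alternatives, with a highest p of 0.114. Most of those 9 were refits of all 6 libraries. With a library left out, its p in edgeR's quasi-likelihood test was 0.0308 without WT replicate 1. Without any other library it was 0.061 to 0.114. The other 6 members changed sign in some alternatives, and the cause was not tested. Without the filter, Hspe1 was at -0.019, Afg3l2 at -0.0065 and Htra2 at -0.0035. Upper quartile scaling gave -0.018 for Hspe1 and -0.0043 for Afg3l2. DESeq2 gave -0.00096 for Hspe1. Limma voom gave -0.014 for Hspe1, 0.009 for Trap1 and -0.003 for Afg3l2. Protein-coding nuclear genes gave -0.0072 for Hspe1. With a library left out, the log2 fold change ranged from -0.20 to 0.18 for Hspd1, -0.23 to 0.14 for Hspe1, -0.13 to 0.08 for Trap1, -0.15 to 0.20 for Afg3l2, -0.22 to 0.14 for Spg7 and -0.05 to 0.13 for Htra2. Trap1 was positive without WT replicate 1 (0.055), WT replicate 3 (0.079) or KO replicate 2 (0.022), Afg3l2 negative without KO replicate 2 (-0.037), and Htra2 negative without WT replicate 2 (-0.011) or WT replicate 3 (-0.049).

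Replicate numbers are shared by the groups, but nothing in the labels pairs the libraries, so the numbers were not taken as a pairing. Deviations of same-numbered libraries from their group means correlated across 12958 genes at 0.47, 0.28 and -0.11. Between libraries of different number the correlations ran from -0.53 to 0.42. With the replicate block edgeR again called 0 genes (515 at an unadjusted p under 0.05), Hspe1 was at -0.0096 and Trap1 at 0.01, and the median of the 9 members was 0.0055. Counting error is small at 994 or more counts per member, so the number of libraries sets the limits.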
